A study of Mus musculus with 12 samples.

Results

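Small nucleolar RNA host genes are transcribed as spliced RNAs whose introns release small nucleolar RNAs (snoRNAs), the guides that direct methylation and pseudouridylation of ribosomal RNA. The 10 genes described here are Snhg1, Snhg3, Snhg5, Snhg6, Snhg8, Snhg11, Snhg12, Snhg15, Snhg17 and Gas5, found by symbol among 43322 genes of the deposited count table. All 10 had a row, and all 10 passed the filter on low counts. Poly-A RNA was sequenced from cultured wild-type cortical glia of CD1 mice aged postnatal day 3 to 5, with EGF in the culture medium of every group. Each culture was started from the frontal cortices of 1 mouse, and the submitters name the cell type as astrocytes. The 3 groups of 4 libraries were a vehicle control, 3 µM thapsigargin, and medium without calcium that held EGTA, a calcium chelator. The series text gives 60 min of treatment and calls the 4 samples of a group biological replicates. Thapsigargin blocks SERCA, the pump that fills the endoplasmic reticulum with calcium. The series text names altered components of calcium signalling as the subject of the comparison.

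After the introns are removed, the joined exons of these host RNAs mostly carry only short reading frames that end early. Ribosomes therefore read them in part, and nonsense-mediated decay, the pathway that removes RNAs with early stop codons, is known to destroy many of them in the cytoplasm. Because that decay needs translation, several of these RNAs are known to accumulate when protein synthesis is blocked. Gas5 was found as a transcript of growth-arrested cells, and like ribosomal protein genes it begins with a pyrimidine tract that ties its translation to growth signals.

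Promoters are printed for 5 of the 6 members that rose with thapsigargin (Snhg1, Snhg5, Snhg12, Snhg15 and Gas5, without Snhg17). Those of Snhg3 and Snhg8, which did not rise, are printed too, so that the start of each RNA can be compared. Each run is 140 bases from RefSeq, build GRCm38.p6, read on the gene's strand from 100 bases before the listed start to 40 bases after it. Capitals mark 3 things that were searched. They are a stretch of pyrimidines, the motif TGACGTCA (the cyclic AMP response element), and the TATA box motif TATAAA. The stretch has at least 5 bases counted from a C and begins within 10 bases of the start. Other pyrimidines may precede that C, as T does in Snhg5, Snhg8 and Snhg12. TATAAA was searched only in the 50 bases before the start, so the one after the start of Snhg3 is in small letters. Gas5 has 2 listed starts, and the second is printed. At the first, the stretch counted from C had 3 bases, and the 140 bases held neither TGACGTCA nor a marked TATAAA.
Snhg1, chr19:8723387-8723526, plus strand: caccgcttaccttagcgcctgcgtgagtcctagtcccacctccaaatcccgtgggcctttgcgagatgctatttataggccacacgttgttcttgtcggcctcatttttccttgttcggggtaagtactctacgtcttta
Snhg5, chr9:88522858-88522997, minus strand: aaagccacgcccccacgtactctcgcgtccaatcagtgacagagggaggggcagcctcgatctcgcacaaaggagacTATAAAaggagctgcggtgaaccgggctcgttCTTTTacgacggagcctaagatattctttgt
Snhg12, chr4:132308578-132308717, plus strand: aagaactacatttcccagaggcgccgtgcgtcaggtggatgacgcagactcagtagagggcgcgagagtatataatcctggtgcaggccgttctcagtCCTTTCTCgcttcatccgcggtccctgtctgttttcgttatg
Snhg15, chr11:6528721-6528860, minus strand: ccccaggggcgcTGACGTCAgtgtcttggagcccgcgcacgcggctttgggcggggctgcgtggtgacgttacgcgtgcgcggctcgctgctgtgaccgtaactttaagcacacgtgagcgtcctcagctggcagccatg
Gas5, chr1:161035066-161035205, plus strand: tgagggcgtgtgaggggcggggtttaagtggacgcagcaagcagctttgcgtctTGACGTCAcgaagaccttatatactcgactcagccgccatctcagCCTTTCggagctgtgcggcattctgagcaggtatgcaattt
Snhg3, chr4:132353647-132353786, minus strand: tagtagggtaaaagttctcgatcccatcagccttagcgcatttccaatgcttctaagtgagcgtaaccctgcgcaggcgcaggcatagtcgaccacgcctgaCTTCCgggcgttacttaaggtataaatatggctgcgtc
Snhg8, chr3:123508297-123508436, minus strand: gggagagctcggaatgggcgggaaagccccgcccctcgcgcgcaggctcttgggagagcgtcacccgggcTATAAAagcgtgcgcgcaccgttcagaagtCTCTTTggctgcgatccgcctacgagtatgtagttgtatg

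The RefSeq table matched 9 of the 10 members, all but Snhg6. A tract by the rule above was present in 5 of the 9 (Snhg3, Snhg5, Snhg8, Snhg12 and Gas5, the last at its second listed start only). It was present in 34.4% of all 27025 genes with a promoter and in 61.5% of 65 ribosomal protein genes. The tract thus occurred both in members that rose and in Snhg3 and Snhg8. The stretch counted from C had 4 bases in Snhg1 and Snhg15, and 3 at each of the 2 listed starts of Snhg17. In Snhg1 it is soon followed by a longer run of pyrimidines that opens with T. Counted from its first C, that run is too short for the rule. The motif TGACGTCA, searched on both strands over 300 bases, was found in Snhg15 and Gas5 (at its second listed start) and in 2.03% of all genes. TATAAA, searched on the gene's strand in the 50 bases before the start, was found in Snhg5 and Snhg8 and in 3.15% of all genes. The motif TTGCATCA, which ATF4 dimers are known to bind, was searched on both strands over 300 bases and was in 0 of the 9 and in 1.03% of all genes. CACGTG, the E-box, was searched the same way and was in Snhg15 alone of the 9 and in 8.09% of all genes. TGACG, the shared core of the first motif and therefore overlapping it, was in 4 of the 9 (Snhg8, Snhg12, Snhg15 and Gas5) against 19.8% of all genes, over 250 bases on both strands. These matches describe letters in a window and were not tested against the expression values.

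Control libraries totalled 40.25 ± 2.13 M counts (SD, n = 4), thapsigargin libraries 42.1 ± 0.418 M and calcium-free libraries 39.3 ± 2.51 M. A member's count in a library ran from 37 (Snhg11) to 4048 (Gas5). The 3 libraries numbered 4 stood apart: they held 587.6 to 739.8 CPM of Xist (CPM being counts per 1 M of TMM-normalised library size), against at most 0.319 CPM in the other 9. Calcium-free replicate 1 stood apart from its own group in nuclear RNAs, a choice of genes made after their values were seen. It held 433.2 CPM of Malat1 against 175.4 to 217.6 CPM in calcium-free replicates 2 to 4, and 376.5 to 448.4 CPM in control. Results for members whose call changed without these libraries are given below with and without them. Astrocyte markers of a list of 11, all tested, summed to 8213 to 9272 CPM in control, 7320 to 8379 CPM with thapsigargin and 8507 to 9363 CPM in calcium-free medium. The libraries also held markers of microglia (142.7 to 271.2 CPM over all libraries), oligodendrocyte lineage (1641 to 2091 CPM), neurons (355.2 to 459.3 CPM), vascular and fibroblast cells (1845 to 2791 CPM) and dividing cells (1715 to 2307 CPM). No listed marker was at 0 counts in every library. In bulk RNA, fewer cells of a type and less RNA per cell cannot be told apart.

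Gas5 was by far the most abundant member in control cells. Compared per length, its level was 106.7 ± 4.13 CPM per kb of exon (SD, n = 4). Snhg1 followed at 29.2 ± 1.93 CPM per kb, and the libraries of these genes did not overlap. Snhg3 (17.3 ± 1.25), Snhg6 (17.25 ± 1.31) and Snhg5 (15.3 ± 1.75 CPM per kb) came next, and each of these neighbours overlapped. Snhg8 was at 13.0 ± 0.521, Snhg12 at 11.6 ± 1.79 and Snhg15 at 9.08 ± 0.820 CPM per kb, again with overlap between neighbours. Snhg17 (2.75 ± 0.543) and Snhg11 (0.657 ± 0.0871 CPM per kb) were lowest and separate from each other and from the rest. With thapsigargin the order of Gas5 and Snhg1 stayed, at 142.3 and 74.5 CPM per kb. Snhg5 (30.7), Snhg12 (23.3) and Snhg15 (22.1) then stood above Snhg6 (21.5) and Snhg3 (14.6 CPM per kb). The libraries of Snhg12, Snhg15 and Snhg6 overlapped as neighbours in that order.

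**Figure D1:**
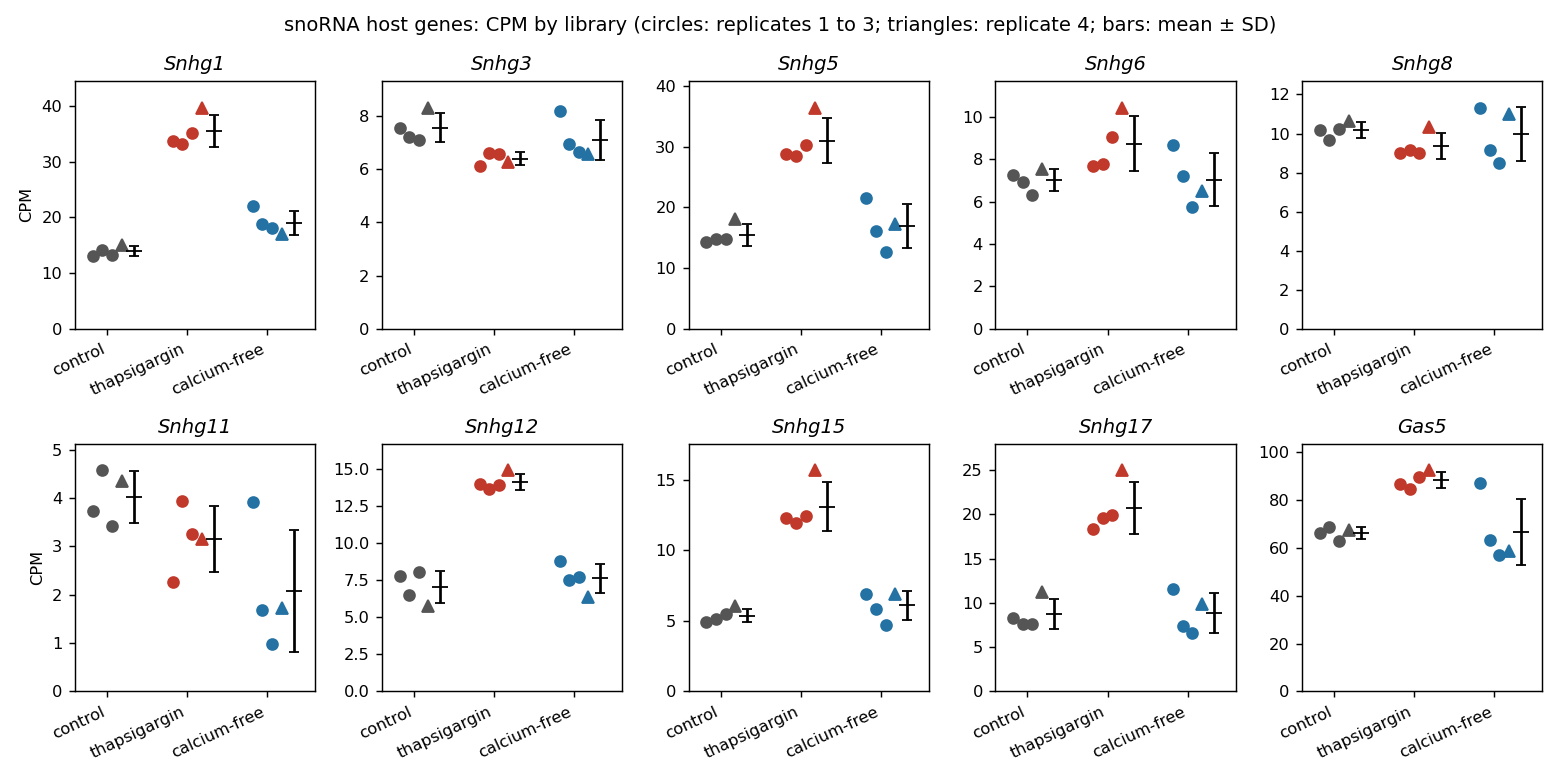
Level of each of the 10 snoRNA host genes (CPM, vertical axis starting at 0) in every library of the control, thapsigargin and calcium-free groups; circles are replicates 1 to 3, triangles replicate 4, and the black bar is the mean ± SD (n = 4). Snhg1, Snhg5, Snhg12, Snhg15 and Snhg17 with thapsigargin lie above every control library and every calcium-free library.

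Within 60 min of thapsigargin, 6 members rose and 1 fell relative to control. The 6 were Snhg1, Snhg5, Snhg12, Snhg15, Snhg17 and Gas5, at an adjusted p under 0.05 in edgeR's quasi-likelihood test, and the gene that fell was Snhg3. Across all 17077 genes tested, 16.4% were called higher and 14.8% lower. With the replicate number as a block in the fit these shares were 23.0% and 28.2%, beside which the block counts below are read. Without replicate 4 in every group they were 24.5% and 21.2%, beside which the counts below in that setting are read. Of the 6, 5 rose at least 2-fold, a size reached by 0.995% of all genes tested. The median log2 fold change of the 10 members was 0.71, against -0.047 for all genes tested. Among 1653 lncRNA genes tested, 2.84% were called higher and 3.93% lower, with a median of -0.093.

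Snhg1, whose introns hold 8 annotated snoRNAs (gene 83673, GRCm39 chr19:8700851-8703690, plus strand, 476 bp of exon), changed most. It stood at 13.1, 14.1, 13.3 and 15.1 CPM in control replicates 1 to 4 and at 33.7, 33.2, 35.2 and 39.7 CPM with thapsigargin. Every treated library was above every control library, and the mean went from 13.9 ± 0.921 to 35.45 ± 2.94 CPM (SD, n = 4). The log2 fold change was 1.35 ± 0.09 (SE; adjusted p = 7.21e-07, edgeR quasi-likelihood test). Slc3a2, an amino acid transporter subunit that is read in the opposite direction from just beside the start of Snhg1, had a log2 fold change of 0.27 ± 0.16 (adjusted p = 0.222).

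Snhg15, known in other cells as a short-lived stress-responsive RNA (chr11:6475591-6478760, minus strand, 592 bp of exon), was the next largest. Control libraries held 4.92, 5.10, 5.47 and 6.02 CPM, and treated libraries 12.3, 11.9, 12.4 and 15.7 CPM. The groups did not overlap, replicate 4 was the highest in both, and the log2 fold change was 1.28 ± 0.13 (adjusted p = 1.58e-05, edgeR). Snhg17 (chr2:158195620-158203442, minus strand, 3172 bp of exon) stood at 8.35, 7.63, 7.66 and 11.3 CPM in control and at 18.3, 19.6, 19.9 and 24.98 CPM with thapsigargin. It has the longest exons of the 6 that rose, and its log2 fold change was 1.24 ± 0.18 (adjusted p = 0.000234, edgeR).

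Snhg5, the host of U50 snoRNAs (chr9:88403105-88404950, minus strand, 1011 bp of exon), doubled, with a fold change of 2.01. Its control libraries were at 14.2, 14.8, 14.7 and 18.1 CPM and its treated libraries at 28.85, 28.5, 30.2 and 36.5 CPM. The log2 fold change was 1.01 ± 0.14 (adjusted p = 0.000202, edgeR), and the groups were far apart. Snhg12 (chr4:132035989-132038335, plus strand, 606 bp of exon) was at 7.77, 6.51, 8.06 and 5.74 CPM in control and at 14.0, 13.6, 13.9 and 14.9 CPM with thapsigargin. Replicate 4 was its lowest control library and its highest treated library. The mean of Snhg12 moved from 7.02 ± 1.09 to 14.1 ± 0.556 CPM, and its log2 fold change was 1.01 ± 0.11 (adjusted p = 4.1e-05, edgeR).

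Gas5 (gene 14455, chr1:160862171-160866109, plus strand, 620 bp of exon) rose less, from a much higher level. It was at 66.0, 68.6, 62.7 and 67.4 CPM in control and at 86.55, 84.6, 89.5 and 92.4 CPM with thapsigargin, without overlap. The log2 fold change was 0.42 ± 0.11 (adjusted p = 0.0109, edgeR). Without replicate 4 in every group it was 0.44 with an adjusted p of 0.058, so that call was lost. Zbtb37, a zinc finger gene on the other strand whose span covers the start of the Gas5 row, rose by a similar log2 fold change of 0.39 ± 0.09 (adjusted p = 0.00592). Whether the authors counted by strand is not given in the sources used here, so a share of reads in the overlap could belong to either gene.

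The other members moved little. Snhg3, the host of U17 snoRNAs (chr4:132079244-132080997, minus strand, 437 bp of exon), was at 7.57, 7.23, 7.12 and 8.32 CPM in control and at 6.12, 6.63, 6.57 and 6.27 CPM with thapsigargin. All treated libraries were below all control libraries, with a log2 fold change of -0.24 ± 0.08 (adjusted p = 0.0455, edgeR). Of the 7 calls it was absent most often, in 16 of 22 alternative settings, and the value was -0.14 (adjusted p = 0.191) without replicate 4 in every group. With the trend of fold change on exon length removed it was -0.05 (adjusted p = 0.685).

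Snhg6 (chr1:10012250-10014343, minus strand, 407 bp of exon) was at 7.26, 6.95, 6.32 and 7.56 CPM in control and at 7.69, 7.77, 9.08 and 10.45 CPM with thapsigargin. Its groups did not overlap, but the log2 fold change of 0.32 ± 0.13 missed the threshold (adjusted p = 0.0899, edgeR). With the replicate number as a block it passed (adjusted p = 0.0461), as it did with the length trend removed (0.50, adjusted p = 0.00744). Over the 10 members, 7 did not overlap upward and 1 downward, against 16.7% and 15.1% of all genes tested.

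Snhg8 (chr3:123301201-123301985, minus strand, 785 bp of exon) was at 9.65 to 10.65 CPM in control and 8.98 to 10.35 CPM with thapsigargin. Those groups overlapped, with a log2 fold change of -0.12 ± 0.09 (adjusted p = 0.381), which turned to 0.04 with the length trend removed. The Snhg8 row spans 785 bp, all of it exon, and so covers its snoRNA, Snora24. Reads of spliced and unspliced Snhg8 RNA were therefore not kept apart in this row. Snhg11, known mainly as a neuronal transcript (gene 319317, chr2:158217633-158228394, plus strand, 6118 bp of exon), was at 3.74, 4.57, 3.42 and 4.34 CPM in control. With thapsigargin it was at 2.27, 3.93, 3.25 and 3.16 CPM. Its groups overlapped and its log2 fold change was -0.35 ± 0.31 (adjusted p = 0.445).

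Neighbouring members did not respond alike. Snhg12 and Snhg3 lie near each other on chromosome 4 on opposite strands, and the first rose while the second was lower. Snhg17 and Snhg11 lie near each other on chromosome 2, likewise on opposite strands, with log2 fold changes of 1.24 and -0.35.

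**Figure D2:**
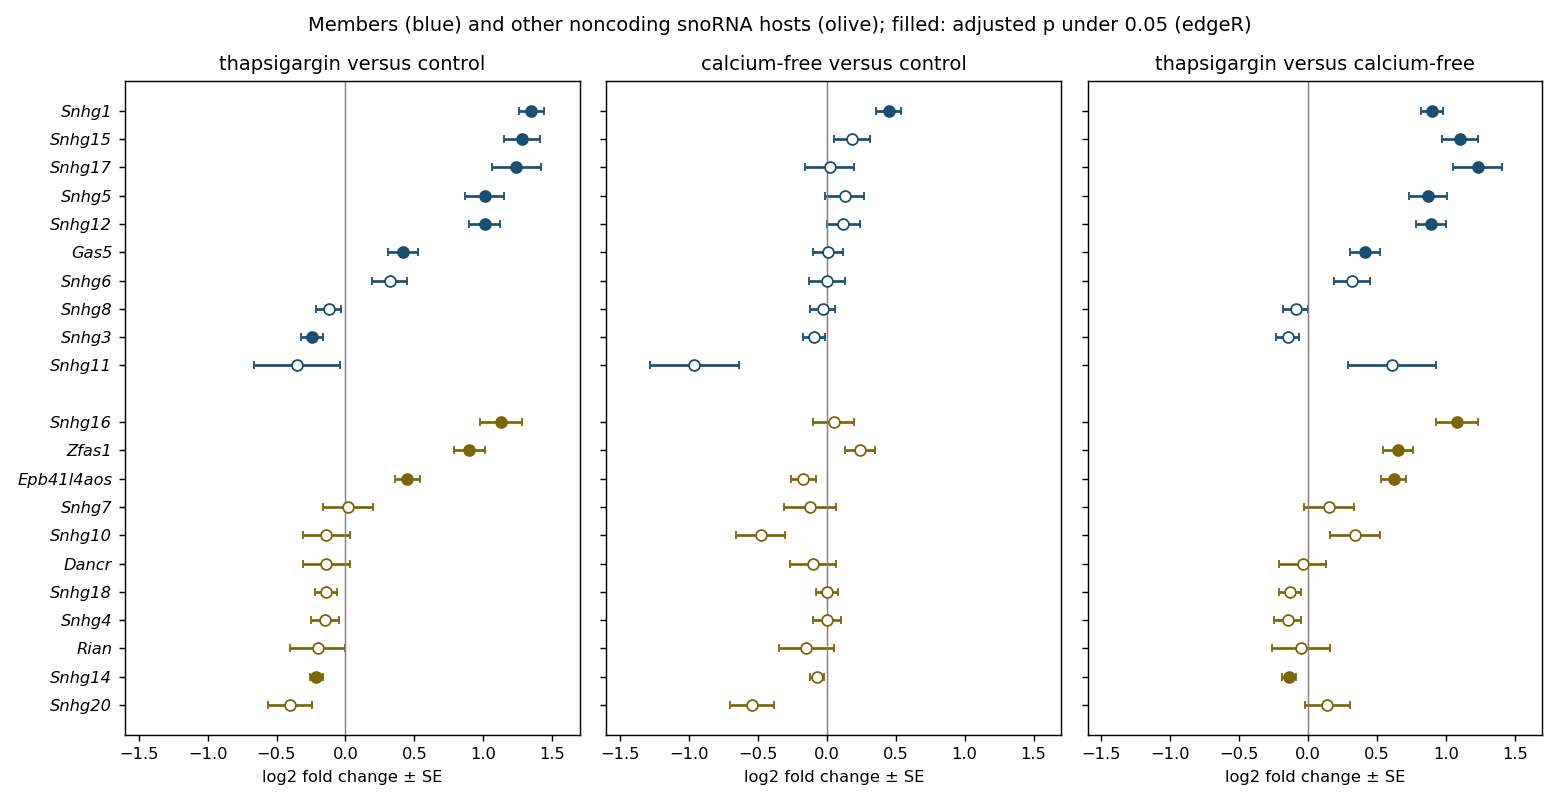
Log2 fold change ± SE (horizontal axis) of the 10 members (blue) and of 11 other noncoding snoRNA hosts (olive) in the 3 comparisons, which share groups of libraries; filled points have an adjusted p under 0.05 in edgeR's quasi-likelihood test. Snhg1 is the only filled point in calcium-free medium versus control, at 0.45.

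Calcium-free medium left 9 of the 10 members without a call, and only Snhg1 was higher. Of members, 0 were called lower by edgeR or limma-voom, with 1 at an unadjusted p under 0.05, and DESeq2 called 1 lower, Snhg11. Over all genes tested, 3.78% were called higher and 1.55% lower (10.4% and 7.01% with the block). Without replicate 4 in every group these shares were 10.5% and 5.16%, and without calcium-free replicate 1 they were 4.97% and 3.48%. The median log2 fold change of the members was 0.013, against -0.008 for all genes and -0.173 for the 1653 lncRNA genes, of which 0.242% were called higher and 3.57% lower. Snhg1 was at 22.01, 18.9, 18.05 and 17.1 CPM, above every control library, with a log2 fold change of 0.45 ± 0.09 (adjusted p = 0.0105, edgeR). It was also the only member without overlap with control, where 6.04% of all genes lay wholly above and 4.43% wholly below. Snhg1 was called higher in all 22 alternative settings, at log2 fold changes from 0.38 to 0.55.

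Snhg11 had the largest difference in size, and its value turned on calcium-free replicate 1. Its levels were 3.91 CPM in that replicate and 1.69, 0.988 and 1.72 CPM in replicates 2 to 4. Replicates 2 to 4 lay below every control library, and replicate 1 lay within the control range. The log2 fold change was -0.96 ± 0.32 (adjusted p = 0.121, edgeR), and it was -1.46 (adjusted p = 0.0033) without replicate 1. DESeq2 called it with all libraries (-0.94, adjusted p = 0.0424). Neuronal markers summed to 420.7 to 459.3 CPM in calcium-free libraries and 401.5 to 433.2 CPM in control. Of 9 tested, 0 were called by edgeR, DESeq2 or limma-voom, and 0 had an unadjusted p under 0.05. Neat1, a nuclear RNA, was at 239.6 CPM in calcium-free replicate 1 and 57.85 to 95.8 CPM in the others, and whether this goes with the level of Snhg11 was not tested.

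The same library was the highest of its group for all 10 members. Gas5 was at 87.0 CPM in calcium-free replicate 1 and at 63.4, 57.0 and 58.75 CPM in the others, so that the group of 66.5 ± 13.9 CPM (SD, n = 4) covered the control level. Its log2 fold change was 0.01 ± 0.11 (adjusted p = 0.993), and -0.15 (adjusted p = 0.102) without replicate 1. Snhg5 (21.6, 16.1, 12.7 and 17.3 CPM) and Snhg17 (11.6, 7.45, 6.58 and 9.83 CPM) had the same shape, highest in replicate 1 and lowest in replicate 3. Their log2 fold changes were 0.13 ± 0.14 (adjusted p = 0.773) and 0.02 ± 0.18 (adjusted p = 0.991). Snhg6 (8.68, 7.20, 5.74 and 6.52 CPM) showed it too, with a log2 fold change of 0.00 ± 0.13 (adjusted p = 0.999).

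Snhg12 was at 8.82, 7.54, 7.74 and 6.38 CPM and Snhg15 at 6.91, 5.85, 4.74 and 6.87 CPM, overlapping control in both cases. Their log2 fold changes were 0.12 ± 0.12 (adjusted p = 0.734) and 0.18 ± 0.13 (adjusted p = 0.569). Snhg3 (6.58 to 8.21 CPM, log2 fold change -0.09, adjusted p = 0.698) and Snhg8 (8.48 to 11.3 CPM, -0.03, adjusted p = 0.968) completed the set. A p above the threshold does not show that the level stayed the same.

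Set directly against calcium-free medium, thapsigargin gave higher levels of 6 members. By edgeR, DESeq2 and limma-voom 0 were lower, and 0 had an unadjusted p under 0.05 in that direction. These were Snhg1, Snhg5, Snhg12, Snhg15, Snhg17 and Gas5, and the background was 14.6% of all genes higher and 13.2% lower (22.4% and 26.9% with the block). Of the lncRNA genes, 7.2% were called higher and 1.33% lower. This comparison is the test of whether the 2 treatments differed, since both shared the same controls. Snhg17 (log2 fold change 1.23 ± 0.18, adjusted p = 0.000392, edgeR) and Snhg15 (1.10 ± 0.13, adjusted p = 8.66e-05) differed most, both by more than 2-fold, a size reached by 1.25% of all genes. Snhg1 had a log2 fold change of 0.90 ± 0.08 (adjusted p = 1.99e-05), Snhg12 of 0.89 ± 0.11 (adjusted p = 0.000175) and Snhg5 of 0.87 ± 0.14 (adjusted p = 0.000751).

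Those 5 genes did not overlap between the treatments, against 14.9% of all genes wholly higher and 13.4% wholly lower. Gas5 overlapped through calcium-free replicate 1, and its log2 fold change was 0.41 ± 0.11 (adjusted p = 0.014, edgeR). It was 0.36 (adjusted p = 0.11) without replicate 4 in every group and 0.56 (adjusted p = 2.98e-05) without calcium-free replicate 1. Snhg6 was at 0.32 ± 0.13 (adjusted p = 0.0986), at an adjusted p of 0.0479 with the replicate block, and at 0.43 (adjusted p = 0.0232) without calcium-free replicate 1. Snhg11 was at 0.61 ± 0.32 (adjusted p = 0.194), and at 1.10 (adjusted p = 0.00396) without that library. Snhg3 (-0.15, adjusted p = 0.217) and Snhg8 (-0.09, adjusted p = 0.507) were not called.

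**Figure D3:**
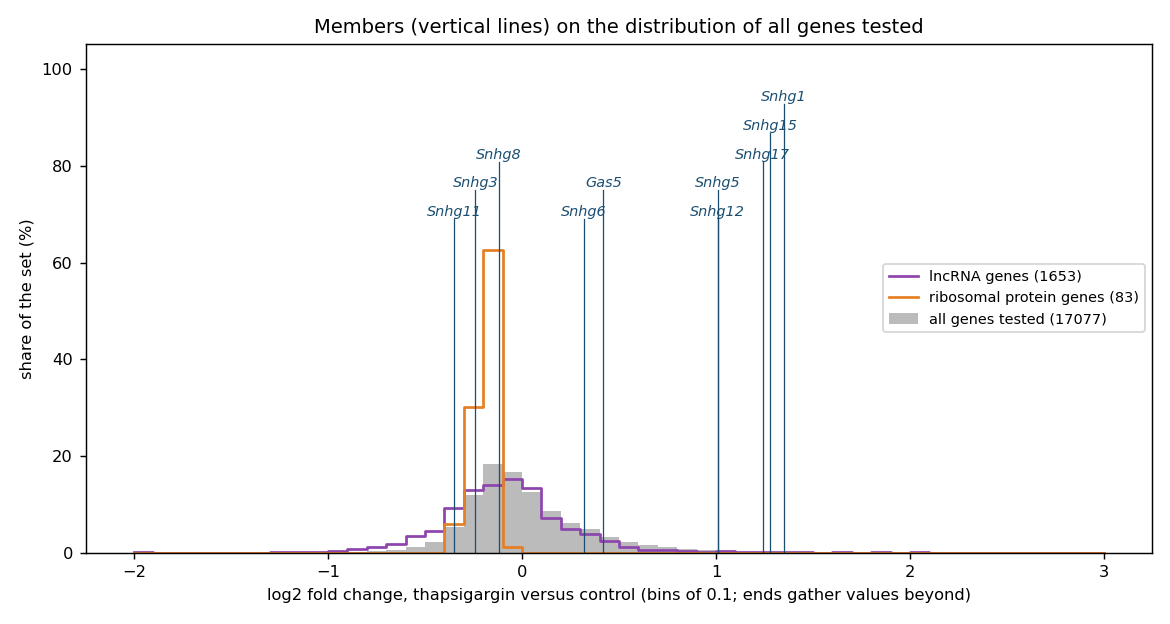
Share of genes (vertical axis, %) by log2 fold change of thapsigargin versus control (horizontal axis, bins of 0.1) for all 17077 genes tested, 1653 lncRNA genes and 83 ribosomal protein genes, with a vertical line at each member's value. The 5 lines farthest right run from Snhg5 and Snhg12 at 1.01 to Snhg1 at 1.35.

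Across all 12 libraries the log2 CPM of the members did not all move one way. Of the 45 pairs of members 31 had a Pearson correlation above 0, with a median of 0.496, from -0.637 (Snhg3 with Snhg12) to 0.986 (Snhg5 with Snhg17). Within groups the members moved more alike. The Pearson correlation of deviations from the group means had a median of 0.672 over 12 libraries, with 42 pairs above 0, from -0.144 (Snhg12 with Snhg17) to 0.936 (Snhg5 with Snhg17). Without the replicates numbered 4, over 9 libraries, the median was 0.857 and all 45 pairs were above 0. These points share libraries, normalisation and, in replicate 4, a source that stood apart. Calcium-free replicate 1, the highest of its group for every member, was kept in each of these measures. Its share in the correlations was not tested. The genes whose log2 CPM over 12 libraries was most like the mean of the members were Zfp598 (r = 0.978), an E3 ligase of collided ribosomes, and Gtpbp2 (r = 0.963), a factor that rescues stalled ribosomes. Rbm15 and Mdm4 (each r = 0.96), Spindoc (r = 0.96) and Zfp653 (r = 0.958) followed, out of 11601 candidate genes. Zfp598 had a log2 fold change of 0.36 ± 0.09 with thapsigargin (adjusted p = 0.00602, edgeR), smaller than that of 6 members. Gtpbp2 was not called (0.22 ± 0.08, adjusted p = 0.0514, edgeR). All the genes named as most alike were, like the members, highest of the calcium-free group in replicate 1. Whether the likeness reflects a shared function was not tested.

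Other noncoding hosts responded in part. Of a list of 12, Snhg9 did not pass the filter, and of the 11 tested 3 rose with thapsigargin and 1 fell, with a median log2 fold change of -0.141. Snhg16 was at 6.29, 5.92, 6.81 and 6.19 CPM in control and at 11.99, 14.1, 13.2 and 15.8 CPM with thapsigargin. That is a log2 fold change of 1.13 ± 0.15 (adjusted p = 0.000116, edgeR), in the range of the members that rose most. Zfas1, a host known to be bound by ribosomes, was at 9.51, 9.70, 9.50 and 10.8 CPM in control and at 17.65, 16.3, 17.7 and 21.8 CPM with thapsigargin (0.90 ± 0.11, adjusted p = 5.44e-05). Epb41l4aos rose by 0.45 ± 0.09 (adjusted p = 0.00242). Snhg14, the very long host at the imprinted Prader-Willi region, fell by 0.21 ± 0.05 on the log2 scale (adjusted p = 0.00547).

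The remaining listed hosts were not called with thapsigargin. Snhg7 (log2 fold change 0.02), Snhg10 (-0.14), Dancr (-0.14), Snhg18 (-0.14), Snhg4 (-0.15), Rian (-0.20) and Snhg20 (-0.40) had adjusted p from 0.0718 to 0.942. With the replicate block 3 hosts were higher and 4 lower. In calcium-free medium versus control 0 of the 11 were called by edgeR, with 1 higher and 2 lower at an unadjusted p under 0.05, and 1 in each direction with the block. DESeq2 and limma-voom each called 1 lower there, Snhg20. Thapsigargin versus calcium-free medium gave 3 higher and 1 lower. When hosts were instead taken by coordinates, 57 further noncoding genes held a snoRNA row on their own strand, and 24 of them were tested. Of these 24, 5 rose with thapsigargin and 2 fell, the added ones being 1110038B12Rik (0.77 ± 0.10) and 2410006H16Rik (0.44 ± 0.06) upward and 5730408K05Rik (-0.84 ± 0.26) downward.

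Protein-coding hosts were called in both directions. Of a list of 27 coding snoRNA hosts, 3 rose and 7 fell with thapsigargin, with a median log2 fold change of -0.142, and 4 rose and 21 fell with the replicate block (4 and 19 without replicate 4 in every group). Taf1d, a subunit of the RNA polymerase I factor SL1, was the exception in size. Its mean was 17.7 ± 1.38 CPM in control and 34.5 ± 3.26 CPM with thapsigargin (SD, n = 4), with a log2 fold change of 0.96 ± 0.12 (adjusted p = 9.77e-05, edgeR). Rpl7a (-0.34 ± 0.07, adjusted p = 0.00204) and Rpl10 (-0.24 ± 0.05, adjusted p = 0.00402), both ribosomal protein genes, fell. Among 210 coding hosts tested by coordinates, 38 rose and 39 fell (18.1% and 18.6%, against 16.4% and 14.8% of all genes tested). Their median was -0.057, near that of all genes. Without replicate 4 in every group 59 rose and 64 fell (28.1% and 30.5%, against 24.5% and 21.2% of all genes). The 83 tested ribosomal protein genes, which share the pyrimidine start with many snoRNA hosts, had 46 called lower, with a median of -0.175. Of them 0 were higher by edgeR, DESeq2 or limma-voom, or at an unadjusted p under 0.05, and all 83 were lower with the block (75 without replicate 4 in every group). In calcium-free medium 0 of the 83 were called by edgeR, DESeq2 or limma-voom, and 0 had an unadjusted p under 0.05. Of the 27, 0 were called there by edgeR, with 2 higher at an unadjusted p under 0.05 and 1 called by DESeq2, Hspa8.

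The factors of nonsense-mediated decay were mixed. Of 21 genes on the list, 7 rose and 2 fell with thapsigargin (10 and 4 with the block, and likewise without replicate 4 in every group), and the median log2 fold change was 0.104. Upf2, an adaptor of the decay complex, went from 13.6, 14.8, 14.8 and 15.8 CPM in control to 32.0, 30.6, 31.55 and 37.8 CPM. Its log2 fold change was 1.16 ± 0.08 (adjusted p = 1.17e-06, edgeR), and it was 0.55 ± 0.08 in calcium-free medium (adjusted p = 0.00272). Casc3, of the exon junction complex, rose by 0.50 ± 0.07 (adjusted p = 0.000182). In calcium-free medium 3 of the 21 rose, and 8 rose and 1 fell with the block (7 rose without replicate 4 in every group, and 2 without calcium-free replicate 1).

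General RNA decay enzymes gave 6 higher and 1 lower of 17 with thapsigargin (10 and 2 with the block, and 10 and 0 without replicate 4 in every group), with a median log2 fold change of 0.086. The decapping factors Edc3 (0.89 ± 0.08, adjusted p = 4.98e-06, edgeR), Dcp1b (0.77 ± 0.09, adjusted p = 5.01e-05) and Edc4 (0.31 ± 0.07, adjusted p = 0.00436) were among the 6. Proteins that assemble or bind snoRNAs gave 3 higher and 2 lower of 18 (4 and 6 with the block), with a median of -0.035. Those shares, 16.7% and 11.1%, are near those of all genes tested. Nop58, a core C/D box protein, rose by 0.42 ± 0.09 (adjusted p = 0.0026), and the assembly factors Nufip1 (0.37 ± 0.09, adjusted p = 0.00545) and Znhit6 (0.30 ± 0.05, adjusted p = 0.000513) also rose. In calcium-free medium 2 decay enzymes rose (5 with the block), and 0 of the 18 snoRNA proteins were called by edgeR, DESeq2 or limma-voom, with 2 at an unadjusted p under 0.05.

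Of 10 genes listed as readouts of eIF2 phosphorylation, the brake on translation that endoplasmic reticulum stress applies, the RNA of 8 rose with thapsigargin. The share of all genes called higher was 16.4%. With the block, and likewise without replicate 4 in every group, 8 were higher and 1 lower. In calcium-free medium 3 of the 10 rose, against 3.78% of all genes. There 5 were higher and 1 lower with the block, and likewise without replicate 4 in every group. Without calcium-free replicate 1, 2 were higher. Atf4 was at 63.9 to 68.6 CPM in control, at 265.7 to 302.0 CPM with thapsigargin and at 122.7 to 143.1 CPM in calcium-free medium. Its log2 fold changes were 2.08 ± 0.06 (adjusted p = 1.68e-09, edgeR) and 0.98 ± 0.06 (adjusted p = 4.08e-06). Atf3 (2.04 ± 0.12, adjusted p = 5.83e-07) and Ppp1r15a (1.19 ± 0.07, adjusted p = 7.21e-07) also rose with thapsigargin. Phosphorylation of eIF2 and translation were not measured here, and their part in the levels of the host RNAs was not tested.

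Over the 6 lists of cell type markers, 4 of 57 were called higher and 9 lower with thapsigargin. The 9 are 15.8% of the markers, close to the 14.8% of all genes. With the block 5 were higher and 34 lower (59.6%, against 28.2% of all genes). Without replicate 4 in every group 6 were higher and 29 lower (50.9%, against 21.2% of all genes). In calcium-free medium 1 was higher, Olig2, and 0 were lower by edgeR, DESeq2 or limma-voom or at an unadjusted p under 0.05 in edgeR, with 7 each way with the block and 5 higher and 8 lower without replicate 4 in every group. By list, with thapsigargin, astrocyte markers gave 1 higher and 3 lower of 11 (1 and 9 with the block), and microglia markers 2 lower of 11 (11 with the block). The lists for oligodendrocyte lineage (8 tested), neurons (9 tested) and proliferation (10 tested) gave 1 called each way. Vascular and fibroblast markers gave 1 lower of 8. In this list and the microglia list, 0 were higher by edgeR, DESeq2 or limma-voom, or at an unadjusted p under 0.05. With the block the lower calls of these 4 lists were 4, 3, 5 and 2. The part of cell composition in the levels of the host genes was not tested.

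The snoRNAs themselves have rows of their own in the table, 31 of them inside members. Gas5 and Snhg1 hold 8 each, Snhg12 holds 4, Snhg3, Snhg5, Snhg11 and Snhg17 hold 2 each, and Snhg6, Snhg8 and Snhg15 hold 1 each. A poly-A library is not made to capture mature snoRNAs, which lack a poly-A tail, so these rows do not measure the mature RNA. Of the 25 tested, 0 were called in thapsigargin versus control by edgeR, DESeq2 or limma-voom, 0 had an unadjusted p under 0.05 in edgeR, and 1 was lower with the block. Of them, 19 had a negative log2 fold change, with a median of -0.33. Without replicate 4 in every group the median was -0.18, and 17 of 24 were negative. Without calcium-free replicate 1 in the fit, 1 was called lower (Gm25789 inside Gas5, adjusted p = 0.0498).

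Summed over the 31 rows, control libraries held 23.2, 20.95, 20.1 and 22.9 CPM and thapsigargin libraries 14.2, 19.1, 19.5 and 17.3 CPM. The 10 host rows went the other way, from 145.4 ± 6.56 to 230.3 ± 16.7 CPM (SD, n = 4). Per 100 host counts there were thus 15.0 ± 0.848 snoRNA counts in control and 7.63 ± 1.14 with thapsigargin, and the groups overlapped in neither measure. The exact two-sided permutation test gave p = 0.0286 for each, the smallest that 4 against 4 libraries allow, and 0.0857 after adjustment over 6 tests. Since the host rows rose, the ratio would fall even with level snoRNA rows, so its p says nothing further about those rows. Rows of 1299 snoRNAs outside the members summed to 43.4 ± 3.35 CPM in control and 39.8 ± 4.81 CPM with thapsigargin, with overlap.

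In calcium-free medium the summed rows spread widely, at 30.8, 15.9, 8.79 and 14.4 CPM, and replicate 1 was again the highest. Per 100 host counts the group had 11.05 ± 3.88 (SD, n = 4), with an exact permutation p of 0.114 against control (0.171 adjusted). By replicate these were 16.2, 11.02, 6.83 and 10.2, so that replicates 2 to 4 lay below every control library and only replicate 1 overlapped. Without replicate 1 the ratio was 9.34 ± 2.21 (SD, n = 3), with an exact permutation p of 0.0571, the smallest that 3 against 4 libraries allow. The summed rows were then at 13.0 ± 3.75 CPM, also below every control library (exact permutation p = 0.0571). In this comparison 0 of the 25 snoRNA rows were called by edgeR, limma-voom or DESeq2, with 1 at an unadjusted p under 0.05 in edgeR. With the block 1 was lower, and without replicate 4 in every group 1 was lower, in both cases Gm23925 inside Snhg17. Without calcium-free replicate 1, 3 were lower: Gm22357 (-1.12 ± 0.16, adjusted p = 0.00259, edgeR) and Snord78 (-0.99 ± 0.22, adjusted p = 0.0198) inside Gas5, and Snord22 inside Snhg1 (-0.82 ± 0.19, adjusted p = 0.0255). Between thapsigargin and calcium-free medium 1 was higher, the snoRNA Gm23925 inside Snhg17, with a log2 fold change of 1.34 ± 0.35 (adjusted p = 0.0138). With the block Snora9 inside Snhg15 was called as well. Without calcium-free replicate 1, 4 were higher, the 3 just named and Gm23925. Most snoRNA counts came from Gas5, at 13.2 ± 0.960 CPM in control, 9.89 ± 1.74 CPM with thapsigargin and 10.5 ± 6.81 CPM in calcium-free medium. Those of Snhg1 were at 3.53 ± 0.375, 2.83 ± 0.377 and 2.76 ± 1.29 CPM in the same order.

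**Figure D4:**
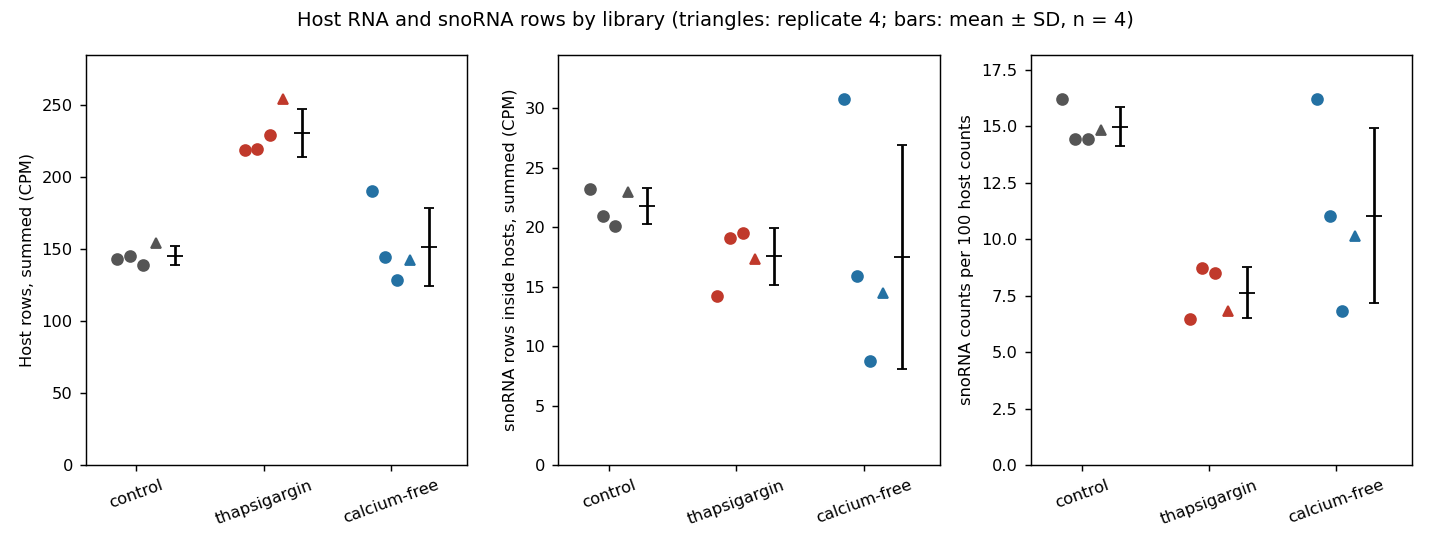
Summed CPM of the 10 host rows, summed CPM of the 31 snoRNA rows inside them, and snoRNA counts per 100 host counts, by library in the 3 groups; triangles are replicate 4 and black bars the mean ± SD (n = 4). Thapsigargin libraries lie above control for the host rows (218.8 to 254.3 against 138.9 to 154.4 CPM) and below control in the other panels.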

How the data were processed

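RNA was sequenced from 12 libraries of cultured mouse glia in 3 groups of 4, grouped by sample titles. The submitters' processing notes list the tools STAR 2.7.2b, featureCounts 1.6.4 (Subread), cutadapt 1.17 and bcl2fastq 2.20.0.422 and the genome GRCm39. Their options and the strand setting were not given in the sources used here. Per the labels' protocols, RNA integrity numbers were above 9.3 and libraries were stranded. Values deposited by the authors are estimated counts of each gene, of which 14.2% to 15.9% per library were not whole; they were rounded before testing. No molecular identifiers are described, so precision is that of read counts. Columns of no sample used here numbered 0.

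Genes were tested with edgeR 4.0.16 in R 4.3.3 (quasi-likelihood, robust, TMM, a filter on each gene's counts by group, minimum 10), with 12 libraries in 1 fit and Benjamini-Hochberg adjustment over 17077 genes per comparison. Calls were at an adjusted p under 0.05, and standard errors were derived from the test statistic. P-values measure the spread between these samples. The test was checked on simulated counts that held no shift of replicate 4 or of calcium-free replicate 1, so the check does not cover these. Log2 CPM used a pseudocount of 0.5. Alternatives included DESeq2 1.42.0, limma-voom (limma 3.58.1), other scalings and filters, the replicate block, a removed exon-length trend and left-out libraries; leaving libraries out of the lists and snoRNA rows was added after seeing the data. Sums of snoRNA rows were tested with scipy 1.17.1.

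The members and lists were chosen with earlier results of these data known. Named genes were all members, all tested hosts of the second list, the 3 genes of each other list with the smallest p for any group difference, and the 6 genes most alike (average log2 CPM of at least 2, no Gm or Rik symbols). Of the genes this rule names, 1 is not reported here. Promoters came from RefSeq (GRCm38.p6), matched by symbol. All groups use the numbers 1 to 4 for their replicates. Across genes, deviations from group means correlated at r from 0.159 to 0.836 between libraries of the same number, each above 0.1. A block by number was therefore fitted as an alternative, while the main fit used no pairing. The ground for the block rested on replicate 4 (0.814 to 0.836). Among replicates 1 to 3, same numbers gave 0.159 to 0.392 and different numbers 0.238 to 0.412, so pairing was not seen there.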

Additional observations from a re-analysis of the deposited data

Results flagged for a closer look

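Within each group of 4 libraries, the highest or lowest library of each member and each other noncoding host was screened for a gap to its neighbour that, as a share of the group's range, exceeds Dixon's critical value at the 95% level. Of 66 sets of 4 values, 6 passed, where chance gives about 5%. For members, Snhg5 stood at 18.1 CPM in control replicate 4 against 14.2 to 14.8 CPM in the others. Snhg8 stood at 10.35 CPM in thapsigargin replicate 4 against 8.98 to 9.14 CPM. Snhg15 stood at 15.7 CPM in thapsigargin replicate 4 against 11.9 to 12.4 CPM. Among other hosts, Zfas1 was at 10.8 CPM (others 9.50 to 9.70 CPM) and Rian at 48.9 CPM (others 30.4 to 31.0 CPM) in control replicate 4, and Epb41l4aos was at 4.92 CPM in control replicate 1 (others 4.14 to 4.22 CPM). The 6 cases fell in 3 libraries. Of the 6, 5 were in the libraries numbered 4 of control and thapsigargin, which also stood apart in Xist. The cause was not tested.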

How the results depend on the processing

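Each comparison was repeated under 22 alternatives. Snhg1, Snhg5, Snhg12, Snhg15 and Snhg17 were called higher with thapsigargin, against either other group, in all 22. Over the 10 members, 199 of 220 alternative log2 fold changes against control kept their side of the threshold, 17 lost the call (16 of Snhg3 and 1 of Gas5) and 4 gained it (Snhg6); none of the called values changed sign. In calcium-free medium 218 of 220 kept it, and members called were 2 in place of 1 with DESeq2 and without calcium-free replicate 1 (range over left-out libraries 1 to 2). Genes called in all for thapsigargin versus control were 5331, and 8737 with the replicate block (8225 with the length trend removed too). For calcium-free versus control they were 911, but 2968 with the block, 2901 with block and length trend, 1478 with DESeq2 and 500 with only the 2 groups fitted. Leaving out libraries gave 372 to 2659, the highest without replicate 4 in all groups and 1449 without calcium-free replicate 1. For thapsigargin versus calcium-free medium they were 4757, and 8428 with the block (8220 with the length trend too). The block changed no member's call but that of Snhg6. Upper-quartile scaling gave 524 genes higher and 372 lower in calcium-free medium, against 646 and 265. With no filter on low counts, 66.5% of thapsigargin calls were higher, against 52.5%. Left-out libraries moved the ratio of summed snoRNA rows, thapsigargin to control, from 0.774 to 0.855, against 0.805. Counting error limits Snhg11 most, with as few as 37 counts in a library.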
